A study of Mus musculus with 4 samples.

Results

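The 10 genes described here are those of the cadherin switch and its regulators: the adhesion molecules *Cdh1*, *Epcam*, *Cdh2* and *Cdh11*, the mesenchymal proteins *Vim* and *Fn1*, and the transcription factors *Snai1*, *Snai2*, *Zeb1* and *Zeb2*. They were taken by name from the 24637 genes of the table, with earlier results of these data known, and all 10 were measured. Messenger RNA was sequenced in 4 mouse libraries from embryonic stem cells (ESCs) that had been taken towards cardiomyocytes, 5 days as embryoid bodies and then 9 days plated on gelatin. Of these, 2 carry the label WT (*Taf4*+/+) and 2 the label *Taf4a*-/-, in which both alleles of *Taf4a*, a subunit of the general transcription factor TFIID, are null through deleted exons. The lines came from blastocysts of crosses between *Taf4a*+/- mice on the C57Bl6J background, were kept on inactivated embryonic fibroblasts with LIF, and were differentiated in serum-rich medium in both groups. The comparison asks how the loss of *Taf4a* affects these genes in differentiating cultures.

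In an epithelium, E-cadherin (*Cdh1*) joins neighbouring cells through catenins, and EpCAM marks the cell surface. An epithelial-mesenchymal transition (EMT) takes place, for example, when mesoderm leaves the primitive streak. Factors of the Snail and Zeb families then bind E-box motifs and repress *Cdh1* and other epithelial genes. The cells take up N-cadherin (*Cdh2*), vimentin and fibronectin. ESCs themselves carry E-cadherin and EpCAM, cardiomyocytes carry N-cadherin at their intercalated discs, and cadherin-11 (*Cdh11*) is typical of mesenchymal cells.

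The libraries held 21732746 to 27733034 reads on genes. The labelled "cardiac cells" were checked against 8 cardiomyocyte markers, whose normalized counts summed to 20230.1 and 22226 in the WT libraries and to 1567 and 1743 in those labelled *Taf4a*-/-, where 8 of 8 were lower and none was at 0. *Taf4a* itself was at 889 and 678 normalized counts in the WT libraries and at 1722 and 1799 in those labelled *Taf4a*-/-, a log2 fold change of 1.18 (SE 0.16, adjusted p = 0.00569). A count over the whole gene does not check a deletion of some exons, so the RNA does not check the labels, and each direction below is that of the libraries labelled *Taf4a*-/-. Replicates differed by more than sampling noise (chi-square per degree of freedom 51.5 in WT and 14.4 in the other group). The study's methods describe the replicates of its RNA sequencing as coming from 2 independent ESC lines of each genotype. The labels of these libraries name no line, so the p-values rest on the spread between these libraries, at most between 2 lines a genotype. In limma that spread was moderated over genes, with 4.17 prior of 6.17 total degrees of freedom. Each SE and p-value therefore also draws on the variance of other genes. In bulk RNA, fewer cells of a type and less RNA per cell cannot be told apart.

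In the libraries labelled *Taf4a*-/-, 6 of the 10 genes were lower (*Cdh11*, *Zeb1*, *Epcam*, *Zeb2*, *Snai2* and *Cdh1*), 1 was higher (*Cdh2*), and *Vim*, *Fn1* and *Snai1* did not pass the threshold, an adjusted p of 0.05. Across all genes tested, 17.3% were lower and 11.3% higher, which makes 28.6% in either direction. Leaving out any 1 library kept 3 or 4 of the 10 genes lower and at most 1 higher: 4 and 1 without WT replicate 1, 3 and 0 without WT replicate 2, and 4 and 0 without either library labelled *Taf4a*-/-. Calls over all genes tested also changed in number with each library left out, so the shares above hold for the main fit only. Without limma's variance trend 2 of the 10 genes were lower and 0 higher, and *Cdh11* and *Zeb1* were the 2. Over all genes tested 1741 were then lower and 856 higher. The median log2 fold change of the 10 genes was -0.66, and that of all 16926 genes tested was -0.01. Genes from both sides of the switch were among the 6: *Cdh1* and *Epcam* of epithelial and stem cells, and *Cdh11*, *Snai2*, *Zeb1* and *Zeb2* of mesenchymal ones. For 6 genes both libraries labelled *Taf4a*-/- lay below both WT libraries, and for *Cdh2* and *Fn1* both lay above. Such a separation was seen downwards in 36.6% and upwards in 34.5% of all genes tested.

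**Figure D1:**
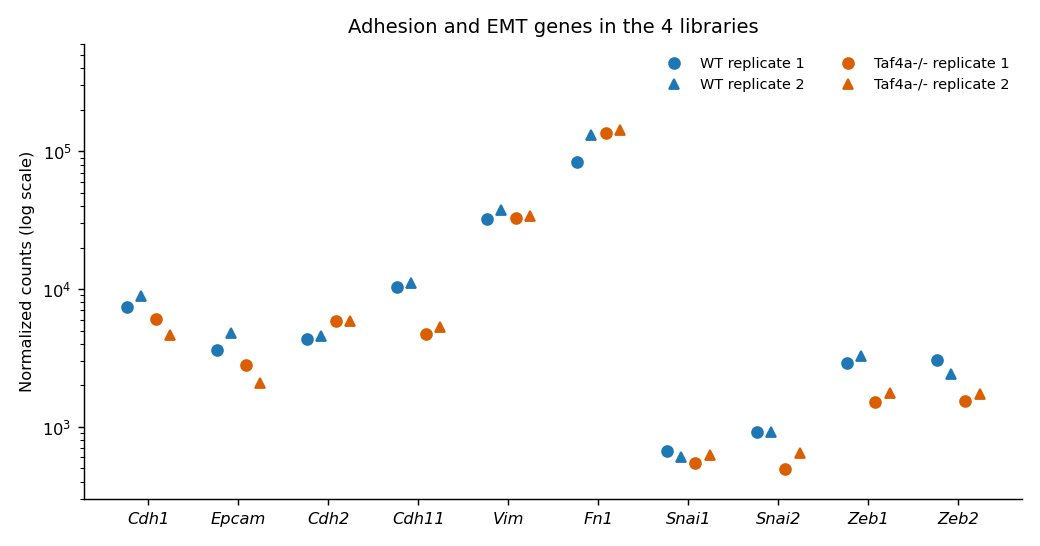
Normalized counts of the 10 genes in each of the 4 libraries, on a log axis, with WT and the libraries labelled *Taf4a*-/- in separate colours and replicates by symbol. *Cdh11* fell from 10321 and 11028 in WT to 4716 and 5299, with a wide gap, while the points of *Vim* and *Snai1* overlap.

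The epithelial adhesion genes come first. *Cdh1* (ENSMUSG00000000303, NCBIM37 chr8:109127251-109194146, plus strand) measured 7369.6 (replicate 1) and 8936 (replicate 2) normalized counts in WT, against 6032 and 4621 where the label was *Taf4a*-/-. Both WT libraries were the higher ones, and the genotypes did not overlap. The means were 8153 ± 1107 and 5326 ± 998 (SD, 2 libraries each), so that 65.1% of the WT level remained, with a log2 fold change of -0.62 (SE 0.17, 95% interval -1.04 to -0.20, adjusted p = 0.0436). This call was near the threshold. It was lost without WT replicate 1 (adjusted p = 0.0565), WT replicate 2 (0.166) or *Taf4a*-/- replicate 2 (0.293), and with libraries scaled to equal totals (0.0545).

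*Epcam* (ENSMUSG00000045394, chr17:88035319-88050446, plus strand) encodes a homophilic adhesion protein that is abundant in ESCs and simple epithelia. Its normalized counts were 3601 and 4835 in WT, against 2810.5 and 2074 in those labelled *Taf4a*-/-. The libraries did not overlap, and they stood in the same order as for *Cdh1*, with WT replicate 2 highest and *Taf4a*-/- replicate 2 lowest. The level was 57.9% of WT, a log2 fold change of -0.79 (SE 0.20, 95% interval -1.29 to -0.29, adjusted p = 0.0348). Within a genotype the replicates of *Epcam* differed by 0.43 and -0.44 on the log2 scale (replicate 2 minus 1, WT first), and those of *Cdh1* by 0.28 and -0.38. The *Epcam* call was lost without WT replicate 2 (adjusted p = 0.150) or *Taf4a*-/- replicate 2 (0.156).

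The summed level of 8 pluripotency markers, *Pou5f1* and *Sox2* among them, differed between genotypes in the opposite direction to *Cdh1* and *Epcam*. Their summed normalized counts were 1787 to 5193 in WT, against 16152 to 18521 in those labelled *Taf4a*-/-, and 7 of the 8 were called higher. The 8 markers of visceral endoderm and liver, an epithelial lineage, differed between genotypes in the same direction as *Cdh1* and *Epcam*. They summed to 85959.7 (replicate 1) and 67813 (replicate 2) in WT, against 1122 and 835 in the other libraries. Of the 8, 8 were lower, and 1 of them, *Alb*, was at or under a floor of 3 reads in the latter. Within WT their order was the reverse of that of *Cdh1* and *Epcam*, which were higher in replicate 2. The part of either cell type in the *Cdh1* and *Epcam* values was not tested.

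The promoter windows of *Epcam* and *Snai1* are shown because Snail and Zeb factors bind the E-box CACCTG, whose reverse complement is CAGGTG. Windows of 250 bases before to 50 after a start, from the RefSeq promoters of GRCm38.p6, were held for 4 of the 10 genes, and each was found again in NCBIM37 by an exact match. The stretches before the start run 5′ to 3′ on the plus strand at chr17:88035069-88035318 for *Epcam* and chr2:167363445-167363694 for *Snai1*, with E-boxes in capitals.
Epcam: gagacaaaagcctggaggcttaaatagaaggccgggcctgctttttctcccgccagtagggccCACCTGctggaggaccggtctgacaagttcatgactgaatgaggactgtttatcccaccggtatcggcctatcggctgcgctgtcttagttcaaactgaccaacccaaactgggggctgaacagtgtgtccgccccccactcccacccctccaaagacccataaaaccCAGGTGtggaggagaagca
Snai1: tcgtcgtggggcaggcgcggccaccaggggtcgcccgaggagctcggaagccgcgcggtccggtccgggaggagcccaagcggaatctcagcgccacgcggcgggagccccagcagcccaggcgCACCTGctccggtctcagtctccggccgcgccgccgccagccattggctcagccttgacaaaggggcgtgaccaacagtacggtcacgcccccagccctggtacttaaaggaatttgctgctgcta
The 2 matches of *Epcam* begin 187 (CACCTG) and 19 (CAGGTG) bases before the start, and the single match of *Snai1* (CACCTG) begins 126 bases before it. No window of *Vim* or *Zeb2* held these letters on either strand. Among all 32851 windows, 20.2% held at least 1 match, and a match is a description of the sequence, not a bound site.

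The other cadherins of the 10 genes moved apart. *Cdh11* (ENSMUSG00000031673, chr8:105156895-105309011, minus strand), the cadherin of osteoblasts and other mesenchymal cells, had 10321 and 11028 normalized counts in WT, against 4716 and 5299 in those labelled *Taf4a*-/-. The WT pair lay far above the other pair, and the replicates lay close together. At 46.9% of WT it had the largest fall of the 10 genes, a log2 fold change of -1.09 (SE 0.12, 95% interval -1.40 to -0.79, adjusted p = 0.00350). It stayed called without any 1 library, with log2 fold changes from -1.18 to -1.01.

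*Cdh2* (ENSMUSG00000024304, chr18:16747386-16967755, minus strand), the N-cadherin of cardiomyocytes, neural cells and mesenchyme, had 4358 and 4578 normalized counts in WT, against 5848 and 5866 in those labelled *Taf4a*-/-. The mutant-labelled pair was the higher one, and the gap between genotypes was wider than that between replicates. The means were 4468 ± 156 and 5857 ± 12.8 (SD, n = 2 a group), which is 131% of WT and a log2 fold change of 0.39 (SE 0.11, 95% interval 0.12 to 0.66, adjusted p = 0.0438). The call was lost without WT replicate 2 (adjusted p = 0.0530), *Taf4a*-/- replicate 1 (0.291) or *Taf4a*-/- replicate 2 (0.295). The cardiomyocyte markers fell with genotype while *Cdh2* rose, and the part of other *Cdh2*-bearing cells was not tested.

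Levels of different genes were compared only after division by exon length, as normalized counts per kilobase. On this scale *Cdh1* stood at 1611 and 1954 in WT, against 1319 and 1010.2 in those labelled *Taf4a*-/-, and *Cdh2* at 540.3 and 568 against 725 and 727. The ratio of *Cdh1* to *Cdh2* was 2.98 and 3.44 in WT and 1.82 and 1.39 in the other libraries, so *Cdh1* remained the more abundant of the pair in all 4 libraries. The mean log2 ratio was 1.68 ± 0.15 in WT, against 0.67 ± 0.28 in those labelled *Taf4a*-/- (SD, n = 2 a group). The difference of -1.01 had a two-sided exact permutation p of 0.333, the smallest that this test can give with 2 libraries a group.

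Shares of the summed cadherin level were set side by side. Over 22 classical and related cadherins the sum was 6554 and 7564 normalized counts per kilobase in WT, against 4848 and 5159 in those labelled *Taf4a*-/-. *Cdh11* gave 37.4% and 34.6% of it in WT and 23.1% and 24.4% in the others. *Cdh2* gave 8.24% and 7.50% in WT and 15.0% and 14.1% in the others. The *Cdh1* share, at 24.6% and 25.8% against 27.2% and 19.6%, overlapped between genotypes. The remaining 19 cadherins together held 29.8% and 32.1% in WT, against 34.8% and 42.0% in those labelled *Taf4a*-/-. The shares were not tested.

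**Figure D2:**
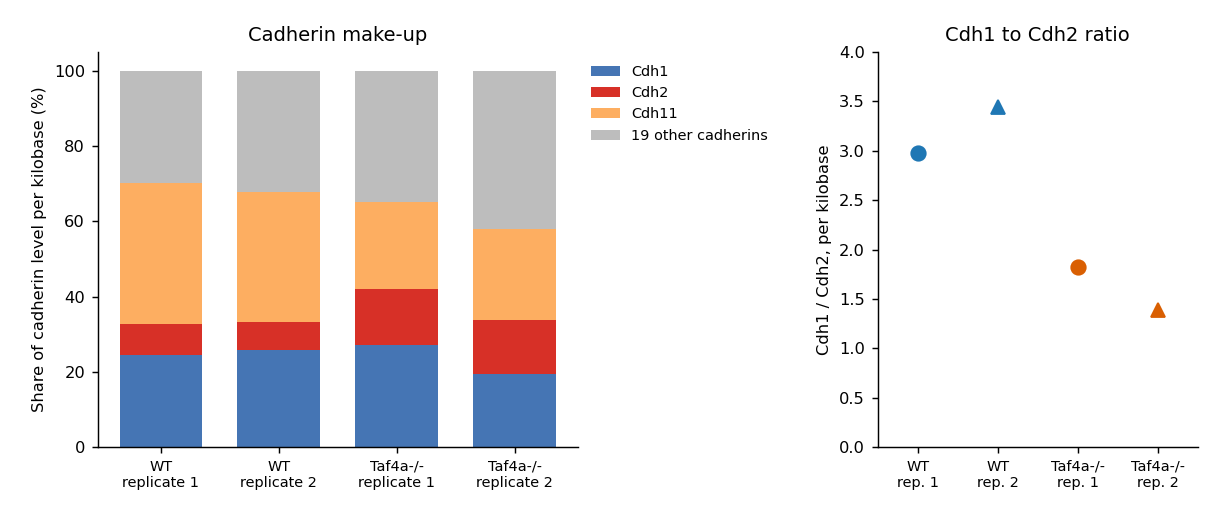
Left, stacked bars with the share (%) of the summed cadherin level per kilobase held by *Cdh1*, *Cdh2*, *Cdh11* and 19 other cadherins in each library. Right, the ratio of *Cdh1* to *Cdh2* per kilobase in each library, which was 2.98 and 3.44 in WT, against 1.82 and 1.39 in those labelled *Taf4a*-/-.

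Of the 19 other cadherins, 12 passed the filter on low values. Of these 12, 3 were lower and 1 higher (median log2 fold change -0.13), against 17.3% and 11.3% of all genes tested. Without WT replicate 2 there were 1 lower and 0 higher, without WT replicate 1 3 lower and 2 higher, and without *Taf4a*-/- replicate 1 3 lower and 0 higher. The genes called lower were *Cdh13* (log2 fold change -2.76, adjusted p = 0.00217), a cadherin anchored in the membrane without a cytoplasmic tail, *Cdh18* (-2.51, 0.0178) and *Cdh6* (-1.67, 0.0133). *Cdh18* was scarce, with 43.8 and 80.0 normalized counts in WT, against 6.85 and 13.3 in those labelled *Taf4a*-/-. *Cdh24* rose by 1.08 on the log2 scale (adjusted p = 0.0132). *Cdh3*, the P-cadherin gene next to *Cdh1*, had 3939.9 and 6563 normalized counts in WT, against 4413 and 5319.8 in those labelled *Taf4a*-/-, which overlap, with a log2 fold change of -0.07 (adjusted p = 0.853). *Cdh5*, the cadherin of endothelial junctions, overlapped too, at 2167 and 1195 against 992 and 2226 (adjusted p = 0.859), and 0 of 6 endothelial markers were called by limma or voom, with 2 of them lower at an unadjusted p under 0.05. The 6 summed to 6291 to 9396 normalized counts in WT and 5122 to 8215 in the others, which overlap.

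Cadherins hold to the cytoskeleton through catenins. Where 17.3% of all genes tested were lower and 11.3% higher, 3 of 13 catenin and nectin junction genes were lower and 1 higher (median log2 fold change 0.0070). These were 0 and 0 without WT replicate 2, 3 and 3 without WT replicate 1, 2 and 0 without *Taf4a*-/- replicate 1 and 3 and 0 without *Taf4a*-/- replicate 2. *Ctnna3*, the alpha-catenin of heart and testis, fell by 3.47 on the log2 scale (adjusted p = 0.00543). It had 96.4 and 122.6 normalized counts in WT, against 5.87 and 13.3 in those labelled *Taf4a*-/-. *Nectin4* fell by 1.86 (0.0243) and the neural alpha-catenin *Ctnna2* by 1.79 (0.00814), and *Afdn*, which links nectins to actin, rose by 0.45 (0.0396). *Ctnnb1*, the beta-catenin that binds *Cdh1* and *Cdh2* alike, had 32383 and 29757 normalized counts in WT, against 39145 and 41559 in those labelled *Taf4a*-/-. These did not overlap, yet the log2 fold change of 0.38 did not pass (adjusted p = 0.116). *Ctnnd1*, the p120-catenin that keeps cadherins at the membrane, gave 0.05 (adjusted p = 0.801).

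Both mesenchymal proteins of the 10 genes missed the threshold. *Vim* (ENSMUSG00000026728, chr2:13495554-13504453, plus strand), the intermediate filament of mesenchymal cells, had 32175 and 37714 normalized counts in WT, against 32883 and 33739 in those labelled *Taf4a*-/-. The latter pair lay between the WT libraries. The log2 fold change was -0.06 (SE 0.16, 95% interval -0.46 to 0.33, adjusted p = 0.787), and its sign turned with quantile normalization (0.20) and without WT replicate 2 (0.0499).

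*Fn1* (ENSMUSG00000026193, chr1:71632094-71699774, minus strand), the fibronectin that mesenchymal cells and many epithelia lay down, had 83244 and 130583 normalized counts in WT, against 136047 and 142736 in those labelled *Taf4a*-/-. WT replicate 1 stood well below the other 3 libraries, and the genotypes did not overlap. The means were 106913 ± 33474 and 139392 ± 4730 (SD, n = 2 a group), and the log2 fold change of 0.42 (SE 0.28, 95% interval -0.26 to 1.10) had an adjusted p of 0.300. Without WT replicate 1 it was 0.094. *Fn1* shares 292 exon bases with *Apol7d* on the other strand, which had 18.4 to 56.4 normalized counts, and the library kit does not mark strand.

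A wider list of 16 mesenchymal genes was examined beside them. By limma 9 were lower and 0 higher, against 17.3% and 11.3% of all genes tested. At an unadjusted p under 0.05, 0 were higher, and 0 by voom, and the median log2 fold change was -0.90. The number lower was 14 without WT replicate 1, 7 without WT replicate 2, 5 without *Taf4a*-/- replicate 1 and 6 without *Taf4a*-/- replicate 2. *Lox*, which cross-links collagen and elastin, had 4149 and 11594 normalized counts in WT, against 238 and 240.0 in those labelled *Taf4a*-/- (log2 fold change -4.85, adjusted p = 0.00192). *S100a4*, a calcium-binding protein used as a fibroblast marker, went from 101 and 178 to 2.94 and 5.53 (-4.73, 0.00268). *Thy1*, a surface glycoprotein of fibroblasts and other cells, and *Mmp14*, a membrane protease, had log2 fold changes of -3.45 (0.00150) and -1.32 (0.00816).

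The 8 fibroblast markers, with *Col3a1* and *Col1a1* the most abundant, summed to 432585 to 598906 normalized counts in WT, against 50092 to 62440.2 in those labelled *Taf4a*-/-, and 6 of them were lower. The 2 markers not called by limma were *Pdgfra* (log2 fold change -0.18, adjusted p = 0.468), whose libraries overlapped, and *Pdgfrb* (-0.53, 0.0624). None of the 8 markers was at 0. Between genotypes their sum differed in the same direction as *Cdh11*, *Snai2*, *Zeb1* and *Zeb2*. The part of fibroblasts in these values was not tested. ESCs of both genotypes had been kept on embryonic fibroblasts, which the methods say were depleted before spontaneous embryoid body formation.

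The Snail family factors repress *Cdh1* through E-boxes. *Snai1* (ENSMUSG00000042821, chr2:167363695-167368314, plus strand), which is needed at gastrulation, had 667 and 601 normalized counts in WT, against 544 and 620.5 in those labelled *Taf4a*-/-. These overlap, and the log2 fold change was -0.12 (SE 0.15, 95% interval -0.49 to 0.25, adjusted p = 0.571), or 0.0049 with quantile normalization. The interval holds a fall, but not a rise, of the size of the *Cdh2* change.

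*Snai2* (ENSMUSG00000022676, chr16:14705945-14709488, plus strand), the Slug factor of neural crest and mesenchyme, had 915 and 910.2 normalized counts in WT, against 491 and 650.3 in those labelled *Taf4a*-/-. The WT libraries were nearly equal, the others lay below them and apart from each other. The level was 62.0% of WT, a log2 fold change of -0.69 (SE 0.17, 95% interval -1.11 to -0.27, adjusted p = 0.0322). The call was lost without WT replicate 1 (adjusted p = 0.0864), WT replicate 2 (0.112) or *Taf4a*-/- replicate 1 (0.212).

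The Zeb factors, zinc-finger homeobox repressors of *Cdh1*, both fell. *Zeb1* (ENSMUSG00000024238, chr18:5591858-5775465, plus strand) had 2901 and 3280.3 normalized counts in WT, against 1509 and 1755 in those labelled *Taf4a*-/-. The pairs were well apart, and the level was 52.8% of WT, a log2 fold change of -0.92 (SE 0.13, 95% interval -1.25 to -0.60, adjusted p = 0.00677). It stayed called without any 1 library.

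*Zeb2* (ENSMUSG00000026872, chr2:44839154-44972915, minus strand), which also acts in neural crest and in macrophages, had 3047 and 2418 normalized counts in WT, against 1549 and 1723 in those labelled *Taf4a*-/-. The genotypes did not overlap. The level was 60.2% of WT, a log2 fold change of -0.73 (SE 0.15, 95% interval -1.10 to -0.37, adjusted p = 0.0186), and the call was lost without *Taf4a*-/- replicate 1 (adjusted p = 0.0916). *Zeb2* shares 458 exon bases with *Gm13476*, a long non-coding RNA on the other strand with 54.8 to 68.6 normalized counts. The 6 macrophage markers, *Csf1r* and *Cx3cr1* among them, summed to 8651 (replicate 1) and 9997 (replicate 2) normalized counts in WT. In the other libraries they summed to 177 and 191, with 6 of 6 lower and *C1qa* at or under the floor. Within WT, *Zeb2* was higher in replicate 1. The part of macrophages in the *Zeb2* value was not tested.

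**Figure D3:**
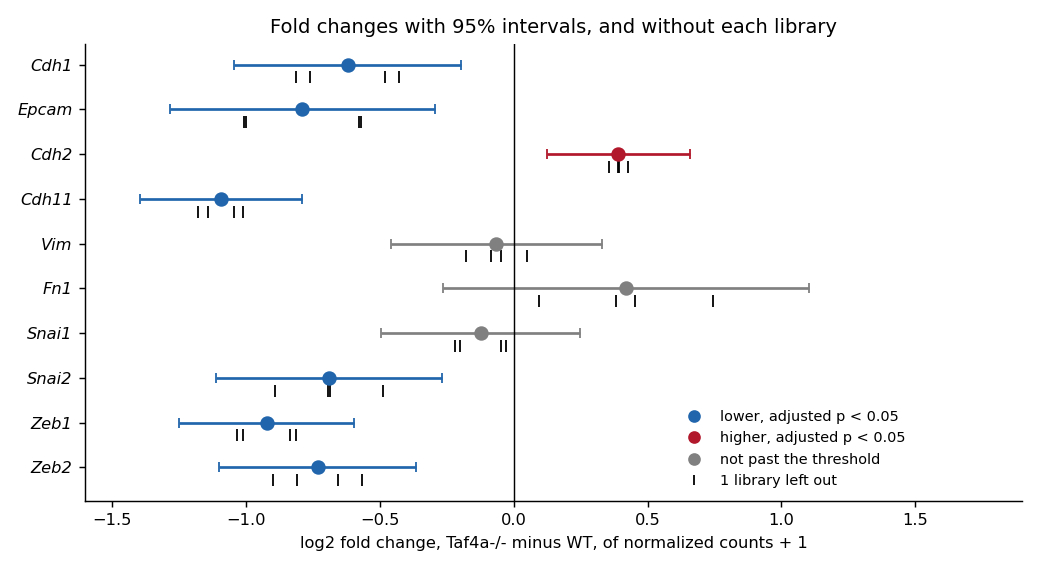
Log2 fold changes of the 10 genes (libraries labelled *Taf4a*-/- minus WT, log2 of normalized counts + 1) with 95% intervals from limma. *Cdh11* is lowest at -1.09 and *Cdh2* is the 1 called gene above 0, at 0.39, while the intervals of *Vim*, *Fn1* and *Snai1* cross 0.

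Per kilobase, *Snai2* (451 and 448) and *Snai1* (412 and 370.5) stood above *Zeb1* (299 and 338) and *Zeb2* (198 and 157) in the WT libraries. In the libraries labelled *Taf4a*-/- *Snai1* (336 and 383) came first, *Snai2* (242 and 320.2) second, and *Zeb1* (155 and 181) and *Zeb2* (101 and 112) again last. The order of *Snai1* and *Snai2* thus changed between genotypes, with no overlap within either. Of the summed level of the 4 factors *Snai1* held 30.3% and 28.2% in WT, against 40.3% and 38.4% in those labelled *Taf4a*-/-. *Snai2* held 33.2% and 34.1% against 29.0% and 32.2%, and *Zeb1* 22.0% and 25.7% against 18.6% and 18.1%. The *Zeb2* share, 14.6% and 12.0% against 12.1% and 11.3%, overlapped. *Snai1* itself did not pass the threshold (log2 fold change -0.12), while *Snai2*, *Zeb1* and *Zeb2* fell. These shares were not tested.

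Over all 10 genes per kilobase, *Vim* (13780 to 16152) and *Fn1* (9976 to 15650.0) led in WT with ranges that overlap, followed by *Cdh11* (2448 and 2616). *Epcam* (1765 and 2369.9) and *Cdh1* came next and overlapped each other, with *Cdh2* below them. In the libraries labelled *Taf4a*-/- *Fn1* (16305 and 17107) stood above *Vim* (14083 and 14449). *Cdh11* (1119 and 1257) was no longer apart there, and it overlapped with *Epcam* (1378 and 1017) and *Cdh1*.

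Of 15 other factors that promote EMT, 1 was higher and 1 lower, against 11.3% and 17.3% of all genes tested. The median log2 fold change was 0.14. Without WT replicate 1 there were 3 higher and 0 lower, and without either library labelled *Taf4a*-/- there were 1 higher and 0 lower. *Prrx1*, a homeobox factor of lateral mesoderm and limb mesenchyme, had 983 and 1058 normalized counts in WT, against 2092 and 2249.6 in those labelled *Taf4a*-/-, a log2 fold change of 1.09 (SE 0.12, adjusted p = 0.00326). It moved opposite to *Snai2*, *Zeb1* and *Zeb2*. *Foxc2*, a forkhead factor of mesoderm, gave -1.15 (adjusted p = 0.0329). The basic helix-loop-helix factor *Twist1* had 1587 and 628 normalized counts in WT and 1869.7 and 2163 in the other libraries, and with this spread its log2 fold change of 1.01 (SE 0.40) did not pass (adjusted p = 0.108). *Twist2* (-0.58, adjusted p = 0.0673) and *Snai3* (-0.35, 0.613) did not pass either, the last at 18.6 to 42.6 normalized counts.

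Factors that hold cells epithelial were also examined. Of 11 such regulators 4 were lower and 1 higher (median log2 fold change -0.99), against 17.3% and 11.3% of all genes tested. The number lower was 1 without WT replicate 2, and 0 were higher without either library labelled *Taf4a*-/-. *Esrp1*, the splicing factor of epithelial isoforms, had 1590.3 and 1685 normalized counts in WT, against 958 and 758 in those labelled *Taf4a*-/- (log2 fold change -0.94, adjusted p = 0.00932). *Ehf* (-4.57, 0.0135), an ETS factor, *Rbm47* (-1.57, 0.00962), an RNA-binding protein, and *Grhl3* (-1.38, 0.0109), a grainyhead factor of surface ectoderm, were lower. The ETS factor *Elf3* was the gene called higher. *Ehf* (SE 0.84) had 102 and 274 normalized counts in WT, against 14.7 and 2.21 in those labelled *Taf4a*-/-. The size of its fall thus rests on few reads. *Grhl2* (-0.29, adjusted p = 0.461) and *Ovol2* (-0.83, 0.125), both repressors of *Zeb1* in epithelia, did not pass.

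The other epithelial junction and surface genes went the way of *Cdh1* and *Epcam* in part. Of 24 genes, 11 were lower and 0 higher by limma and by voom, against 17.3% and 11.3% of all genes tested by limma. At an unadjusted p under 0.05, 1 was higher, and the median log2 fold change was -0.88. The number lower was 3 without WT replicate 2 and 7 without *Taf4a*-/- replicate 2, and 1 was higher without WT replicate 1. The membrane protease *Prss8* (log2 fold change -2.01, adjusted p = 0.00217) and the tight junction proteins *Cldn7* (-1.57, 0.0111) and *Ocln* (-1.42, 0.00821) were among those that were lower. The simple epithelial keratins overlapped between genotypes, *Krt8* with a log2 fold change of -0.01 (adjusted p = 0.948) and *Krt18* with -0.05 (0.831).

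TGF-beta is a well-known inducer of EMT. Of 10 of its ligands, receptors and Smads 5 were lower and 1, the inhibitory *Smad7*, was higher, against 17.3% and 11.3% of all genes tested. The median log2 fold change was -0.46. The rise of *Smad7* was not called without WT replicate 2 or without either library labelled *Taf4a*-/-. The ligands *Tgfb3* (-2.40, adjusted p = 0.00102) and *Tgfb2* (-0.85, 0.00585) and the receptors *Tgfbr2* (-1.53, 0.00560) and *Tgfbr3* (-0.90, 0.00673) were among those that fell. The numbers of calls over all genes tested also changed with each library left out. Of all 16926 genes tested, 2928 (17.3%) were lower and 1906 (11.3%) higher. The 7 lists held 12, 13, 16, 15, 11, 24 and 10 tested genes, and over them 36 genes were lower and 5 higher. Without WT replicate 1 these counts were 41 lower and 11 higher, and without WT replicate 2 they were 18 and 2. Without *Taf4a*-/- replicate 1 they were 33 and 1, and without *Taf4a*-/- replicate 2 they were 27 and 2.

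**Figure D4:**
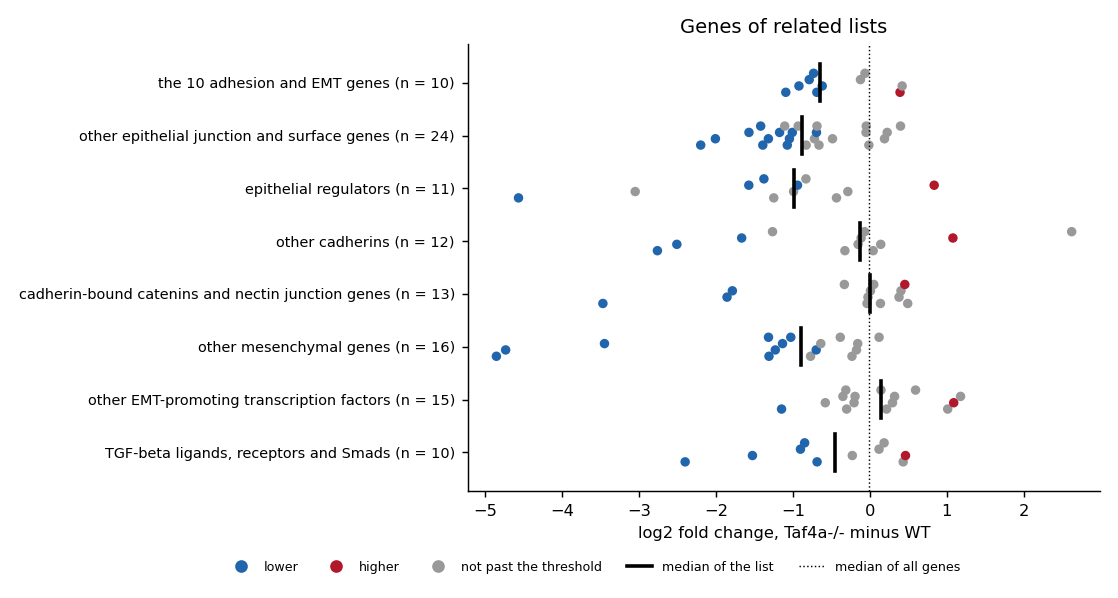
Log2 fold changes (libraries labelled *Taf4a*-/- minus WT) of each tested gene of the 10 and of 7 related lists, coloured by call, with the median of each list as a bar and that of all genes as a dotted line. The medians range from -0.99 for the epithelial regulators to 0.14 for the other EMT-promoting factors.

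The genes whose profile over the 4 libraries lay nearest to that of *Cdh1* were *Lrrk1*, *Rnf208* and *Wbp2*, with root mean square differences of 0.0169, 0.0197 and 0.0218 in centred log2 values. *Epcam* was the nearest of the 10 genes to *Cdh1*, at rank 144 with 0.101, and *Fn1* the farthest, with 0.559. Nearest to *Cdh2* were *Gm1826*, *Htt* and *Gprasp1*, at 0.0110, 0.0114 and 0.0148, and *Fn1* was the nearest of the 10 genes, at rank 4783 with 0.206. With 4 libraries, many genes share such a profile.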

How the data were processed

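Per the submitters' processing notes and the methods, the authors called reads with CASAVA 1.8, aligned them to mm9 (NCBIM37) with TopHat 1.3.3, counted them per gene with HTSeq 0.5.3p1 and deposited counts normalized by DESeq size factors, from poly(A) libraries of a kit that does not mark strand. The annotation release is not given in the sources used here. All 24637 identifiers were found in the NCBIM37 annotation. The values of each library were whole multiples (within 0.01) of the value of 1 read, from which the totals of 21732746 to 27733034 reads follow. Counting error was at most 4.46% for the 10 genes. The 16926 genes that averaged 10 or more normalized counts went into limma 3.58.1 (R 4.3.3; lmFit, then eBayes with its trend option) as log2(value + 1), 2 WT libraries against 2 labelled *Taf4a*-/-. P-values were adjusted by Benjamini-Hochberg over all of them, and genes were called under 0.05. The ± values are SDs of normalized counts. Levels were divided by the length of merged exons. The floor of 3 reads covers counting error only.

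The 10 genes and all lists were chosen with earlier results of these data known. Named are the 10 genes, *Taf4a*, the genes overlapping them, 13 related genes fixed by name (1 is not reported here), up to 4 called genes with the largest changes per list, the 2 most abundant genes of each marker list, and the 3 nearest profiles to *Cdh1* and *Cdh2*. *Elf3*, *Smad7*, *Alb*, *C1qa*, *Pdgfra* and *Pdgfrb* were named after their values were seen. *Cdh18* is on 2 rows, and that with the higher mean was used. Alternatives were other pseudocounts, filters, scalings, the variance model, a replicate block and leaving out each library, and voom was added after the data were seen. The limma step was also run on simulated reads with known changes, drawn with the same dispersion for every gene. No result above rests on that run. Python 3.11.15 with matplotlib 3.10.9 made the plots.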

Additional observations from a re-analysis of the deposited data

How the results depend on the processing

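*Cdh11* and *Zeb1* were called in 13 of 13 alternatives, *Zeb2* in 11, *Epcam* in 10, *Snai2* in 8, *Cdh2* in 7, *Cdh1* in 6 and *Vim*, *Fn1* and *Snai1* in 0. Without the variance trend *Cdh1* (-0.62, adjusted p = 0.121), *Cdh2* (0.39, 0.121), *Epcam* (-0.79, 0.108), *Snai2* (-0.69, 0.0857) and *Zeb2* (-0.73, 0.0721) were no longer called by limma, and 2 of the 10 genes were lower and 0 higher, with 1741 lower and 856 higher over all genes and 21 and 2 over the related lists. *Cdh1* was also lost with equal totals (-0.56, 0.0545) and voom (-0.56, 0.0539), *Cdh2* without a filter (0.39, 0.0584, leaving 0 of the 10 genes higher) and *Snai2* with quantile normalization (-0.58, 0.0501). Quantile normalization turned *Vim* to 0.20 and *Snai1* to 0.0049, moved the median of all genes from -0.01 to 0.11 and raised the share of higher genes among the calls from 39.4% to 52.2%. The cause of these differences was not tested. The labels do not say whether the replicate numbers pair the libraries, and over genes the deviations of same-numbered libraries correlated at 0.0118. With a replicate block *Cdh1* (-0.62, adjusted p = 0.0637) and *Cdh2* (0.39, 0.0874) were not called, 0 of the 10 genes were higher, and the block changed no other call among the 10.

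Leaving out 1 library at a time, where a lone library is assumed to vary like the others, the log2 fold changes ran from -0.81 to -0.43 for *Cdh1*, 0.36 to 0.43 for *Cdh2*, -1.18 to -1.01 for *Cdh11*, -1.01 to -0.57 for *Epcam*, -0.18 to 0.0499 for *Vim* (0.0499 without WT replicate 2), 0.094 to 0.74 for *Fn1*, -0.22 to -0.029 for *Snai1*, -0.89 to -0.49 for *Snai2*, -1.03 to -0.81 for *Zeb1* and -0.90 to -0.57 for *Zeb2*. Of the 10 genes 3 to 4 were then lower and 0 to 1 higher, against 1222 to 3038 lower and 624 to 2476 higher over all genes, and 18 to 41 and 1 to 11 over the lists. The *Cdh1* to *Cdh2* log2 ratio differed by -1.21 to -0.82. The edgeR alternative was not run, and voom on values divided by the value of 1 read was used in its place. With 2 libraries a group, intervals are wide, and for *Vim* and *Snai1* they hold a fall, but not a rise, as large as the *Cdh2* change.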

Other observations

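Some of the other cadherins, counted but not named above, were scarce. *Cdh16*, the cadherin of kidney epithelium, had 14.03 and 20.8 normalized counts in WT and 0 in both libraries labelled *Taf4a*-/-, and *Cdh17*, the cadherin of intestine and liver, had 8.77 and 7.27 against 1.96 and 1.11. Both were under the mean of 10 and were not tested. *Cdh7* had 6.14 and 0 against 8.81 and 26.5 and *Cdh20* 49.1 and 3.12 against 1.96 and 11.1, and neither passed the threshold, with adjusted p-values of 0.114 and 0.485 by limma. These genes were chosen after their values were seen.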
